A study of Caenorhabditis elegans with 12 samples.

Results

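The 9 genes described here are snb-1, unc-64, ric-4, unc-18, unc-13, unc-10, snt-1, rab-3 and sng-1 of the nematode Caenorhabditis elegans, which encode SNARE proteins, vesicle priming factors and membrane proteins of synaptic vesicles that neurons in general use. They were chosen by this known role, and with earlier results of these data known, out of 19971 protein-coding genes on the 6 nuclear chromosomes. The data are ChIP-seq windows of ETS-5, a transcription factor of the ETS family studied mainly in the BAG sensory neurons of the head. The question was where the windows lie relative to genes that neurons in general use for transmitter release.

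The series has 12 samples in 4 groups of 3, an input and a precipitate for each of the strains N2 (wild type) and FQ237, which the series title describes as ets-5-gfp worms. All groups were grown on E. coli OP50 and extracted as whole worms, and the labels name the same GFP antibody for every sample. The window lists of the 3 ETS-5 precipitates were used, and the other 9 samples were not analysed here. No age of the worms, no promoter or copy number of the tagged gene and no separate cultures for the 3 replicates are stated in the labels, so the spread between replicates may be technical. A whole-worm extract mixes all tissues, so a window does not tell in which cells the DNA was bound.

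The lists held 3811, 2915 and 3697 windows in replicates 1, 2 and 3, each 400 bp wide and with no score or read count, so the depth behind a window is unknown. Windows that overlapped by at least 1 bp were merged to 5455 regions, of which 1788 held a window of all 3 lists and are called shared. The tagged gene ets-5 held the window at line 1 of every list. No source used here says what the line order stands for. The place of a window is therefore given as its line number, and as that number in percent of its list, only to describe it.

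Neurons release transmitter when synaptic vesicles fuse with the plasma membrane. Synaptobrevin on the vesicle pairs with syntaxin and SNAP-25 on the plasma membrane, and the coiled SNARE bundle drives fusion. UNC-18 holds and templates syntaxin, UNC-13 opens it to prime the vesicle, UNC-10 (RIM) organises the active zone, RAB-3 marks vesicles, and synaptotagmin senses calcium. These genes are used throughout the worm nervous system, while ETS-5 is known for a role in few neurons.

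Of the 9 genes, 5 had a shared region inside the gene span or within 2000 bp of it, namely snb-1, unc-64, ric-4, unc-10 and rab-3. By the same rule 9.21% of all protein-coding genes had one. A further 3, unc-18, unc-13 and sng-1, had windows in 1 or 2 lists only, and snt-1 had none, so 8 of the 9 had a window of at least 1 list, against 23.8% of all protein-coding genes. Over the separate lists, 7, 7 and 6 of the genes had a window in replicates 1, 2 and 3 (6.67 ± 0.577, SD, n = 3), against 16.8%, 14.1% and 18.04% of all protein-coding genes. No test was made of these counts, because the genes were picked with earlier results of these data known.

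The 9 genes had a median span of 6087 bp against 2006 bp for all protein-coding genes, and a longer gene has more room for a window. Among genes with a span of 5 to 10 kb, 17.9% had a shared region, and 4 of the 5 genes of that size here did. Among genes over 10 kb the share was 30%, and unc-13, the only one of the 9 in that class, had no shared region. Among genes under 2 kb the share was 5.64%, and snb-1, the only one of the 9 there, had one. Among genes of 2 to 5 kb it was 8.73%, and neither unc-18 nor sng-1 had one. How far gene length accounts for the counts was not tested.

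**Figure D1:**
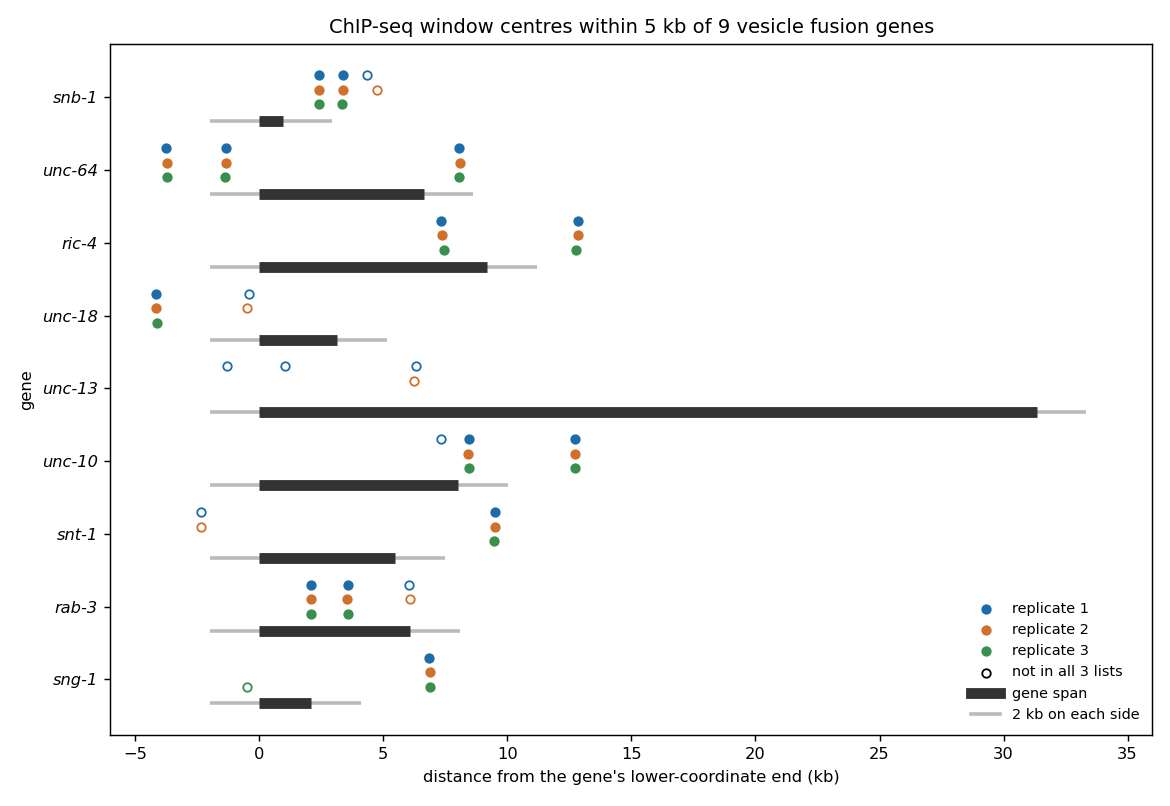
Window centres within 5000 bp of each of the 9 genes, by distance in kb from the gene's lower-coordinate end (x axis), with 1 row of points per replicate, a dark bar for the gene span and a grey line for 2 kb on each side. Filled points belong to regions of all 3 lists. Within 2000 bp these lie at snb-1, unc-64, ric-4, unc-10 and rab-3, while unc-13 has open points alone.

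In all, 14 regions lay inside the 9 gene spans or within 2000 bp. Of these, 7 were shared (50%, against 32.8% of all 5455 regions), 3 were in replicates 1 and 2 alone, 3 in replicate 1 alone and 1 in replicate 3 alone. They held 13, 10 and 8 windows of replicates 1, 2 and 3 (10.3 ± 2.52, SD, n = 3). Per 10 kb of gene span and flanks that is 1.19, 0.918 and 0.735 windows, against 0.342, 0.260 and 0.333 for all protein-coding genes together. The windows of the 7 shared regions lay close to each other across replicates, with centres 10 to 103 bp apart and a median of 36 bp, against a median of 47 bp over all shared regions. The gene table gives no strand, so a side of a gene is named below by its lower-coordinate or higher-coordinate end, and which end is the 5′ end is not stated.

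The SNARE genes come first. The gene snb-1 (CELE_T10H9.4, chromosome V) encodes synaptobrevin, the vesicle SNARE, and is the shortest of the 9 with a span of 940 bp. Its shared region ran from 6657777 to 6658186, in file coordinates counted from 1, and its centre lay 1481 bp beyond the higher-coordinate end. The windows stood at line 182 of replicate 1, line 240 of replicate 2 and line 61 of replicate 3, which is 4.78%, 8.23% and 1.65% of each list (4.89% ± 3.29, SD, n = 3). Of the 14 regions this was the earliest in all 3 lists, and its centres were 10 bp apart, the closest among the shared ones. No other protein-coding gene lay within 2000 bp of it.

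Farther out on the same side of snb-1 lay another pair of regions. One was shared, 2420 bp from the gene, at line 2955, 1981 and 1401. The other, 3602 bp out, was in replicates 1 and 2 alone at line 3263 and 2739, and its windows were 375 bp apart. The regions thus came later in each list that held them with distance from snb-1. For the outermost the nearest protein-coding gene was pmp-5, at 2088 bp.

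The gene unc-64 (CELE_F56A8.7, chromosome III, span 6629 bp) encodes syntaxin, a SNARE of the plasma membrane. It had a shared region on each side and none inside. The region at the lower-coordinate end, from 13275662 to 13276131, lay 1355 bp outside the gene at line 352, 379 and 966 (16.1% ± 8.87 of the list, SD, n = 3), and unc-64 was the only protein-coding gene within 2000 bp. The region at the other end, from 13285120 to 13285543, lay 1442 bp outside at line 844, 1625 and 1195 (36.7% ± 17.2, SD, n = 3). It fell inside set-25, a gene of a histone methyltransferase, with F56A8.8 also within 2000 bp, so it cannot be given to unc-64 by position.

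Another shared region near unc-64 lay 3729 bp from the lower-coordinate end, beyond the 2000 bp limit, and unc-64 was still the nearest protein-coding gene. It stood at line 100 of replicate 1 and line 225 of replicate 2, earlier than both nearer regions, but at line 1767 of replicate 3. The replicates disagreed on the order of the 3 regions: replicates 1 and 2 listed the farthest first, and replicate 3 listed it last.

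The gene ric-4 (CELE_Y22F5A.3, chromosome V, span 9184 bp) encodes SNAP-25, the other plasma membrane SNARE. Its shared region lay inside the gene, from 10268275 to 10268777, 1799 bp from the higher-coordinate end and at 80.4% of the span. The windows stood at line 3193, 2154 and 1109, or 83.8%, 73.9% and 30% of the lists. Replicate 3 placed it earlier than the others, and its centres ranged over 103 bp, the widest among the 7 shared regions. A second shared region lay 3633 bp beyond the same end at line 1795, 718 and 1541, with Y22F5A.11 as its nearest gene at 1455 bp.

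The priming and active zone genes differed among themselves. The gene unc-10 (CELE_T10A3.1, chromosome X, span 8006 bp) encodes RIM, a scaffold that links vesicles, RAB-3 and calcium channels at the active zone. Its shared region, from 7280543 to 7280978, lay 436 bp beyond the higher-coordinate end at line 669, 1272 and 1659 (35.4% ± 15.4 of the list, SD, n = 3), with no other protein-coding gene within 2000 bp. Replicate 1 alone had a window inside the gene, at line 2856 and 91.7% of the span, which lay within 200 bp of the noncoding RNA gene T10A3.2.

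The earliest region of all within 5000 bp of the 9 genes was also on that side of unc-10. From 7284830 to 7285240 a shared region stood at line 51 of replicate 1, line 19 of replicate 2 and line 256 of replicate 3 (2.97% ± 3.44 of the list, SD, n = 3). Its centre lay 4713 bp beyond unc-10, which was the nearest protein-coding gene, and none lay within 2000 bp. Replicates 1 and 2 listed this region earlier than the one at snb-1, and replicate 3 listed it later.

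The gene unc-13 (CELE_ZK524.2, chromosome I, span 31332 bp) encodes the Munc13 protein that makes vesicles ready to fuse, and it is the longest of the 9. No region at it was shared. Replicate 1 had 3 windows, at line 2062, 2111 and 2353, replicate 2 had 1 at line 2360, and replicate 3 had none. The region held by replicates 1 and 2 lay inside the gene, 6278 bp from the lower-coordinate end and at 20.04% of the span. The others were 1300 bp outside that end and 1042 bp inside it. The nearest window of replicate 3 was 21207 bp away, and 67.8% of protein-coding genes had a window of replicate 3 at least as near.

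The gene unc-18 (CELE_F27D9.1, chromosome X, span 3142 bp) encodes the Sec1/Munc18 partner of syntaxin. Replicates 1 and 2 had a window 411 and 474 bp outside its lower-coordinate end, at line 2884 and 1744, between 7682223 and 7682685. Replicate 3 had none there. The gene stn-2, which encodes a syntrophin, lay within 2000 bp of this region too. A shared region 4148 bp from unc-18, at line 1950, 1239 and 2740, fell inside stn-2.

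The genes of vesicle proteins also differed. The gene rab-3 (CELE_C18A3.6, chromosome II, span 6087 bp) encodes the small GTPase of synaptic vesicles and had the most regions inside its span, 3. The first, from 5723647 to 5724066 at 34.4% of the span, was shared and stood at line 607, 537 and 2461. The second, from 5725104 to 5725541 at 58.5% of the span, was shared and stood at line 3705, 1931 and 1172. Replicates 1 and 2 thus listed the first region before the second, and replicate 3 listed the second before the first. The third lay 32 bp inside the higher-coordinate end, in replicates 1 and 2 alone, at line 2148 and 2349. As distances may be off by about 100 bp, it could lie outside, and rab-3 would then have no more inside than unc-13. It lay within 200 bp of the noncoding RNA genes C18A3.16 and C18A3.18, and the protein-coding gene C18A3.7 was within 2000 bp.

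The gene sng-1 (CELE_T08A9.3, chromosome X, span 2105 bp) encodes synaptogyrin, a membrane protein of synaptic vesicles. It had 1 window in replicate 3, at line 2749, 486 bp outside the lower-coordinate end, and none in the other lists within 2000 bp. That window lay within 200 bp of the noncoding RNA genes T08A9.16 and T08A9.17. A shared region 4762 bp beyond the other end stood at line 2719, 1985 and 2279 but lay 247 bp from another gene, epg-7.

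The gene snt-1 (CELE_F31E8.2, chromosome II, span 5471 bp) encodes synaptotagmin, the calcium sensor of fast release, and had no window within 2000 bp in any list. A missing window means only that the list holds none there. Replicates 1 and 2 had a window just past the limit, 2356 and 2345 bp from the lower-coordinate end at line 947 and 641, with F31E8.5 nearer at 1350 bp. A shared region lay 4019 bp beyond the other end at line 952, 683 and 3246, and snt-1 was its nearest protein-coding gene. The nearest shared regions on either side of the 2000 bp limit lay 1481 bp from snb-1 inside it and 2420 bp from the same gene outside it, and the 2 windows at snt-1 lay between these distances.

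**Figure D2:**
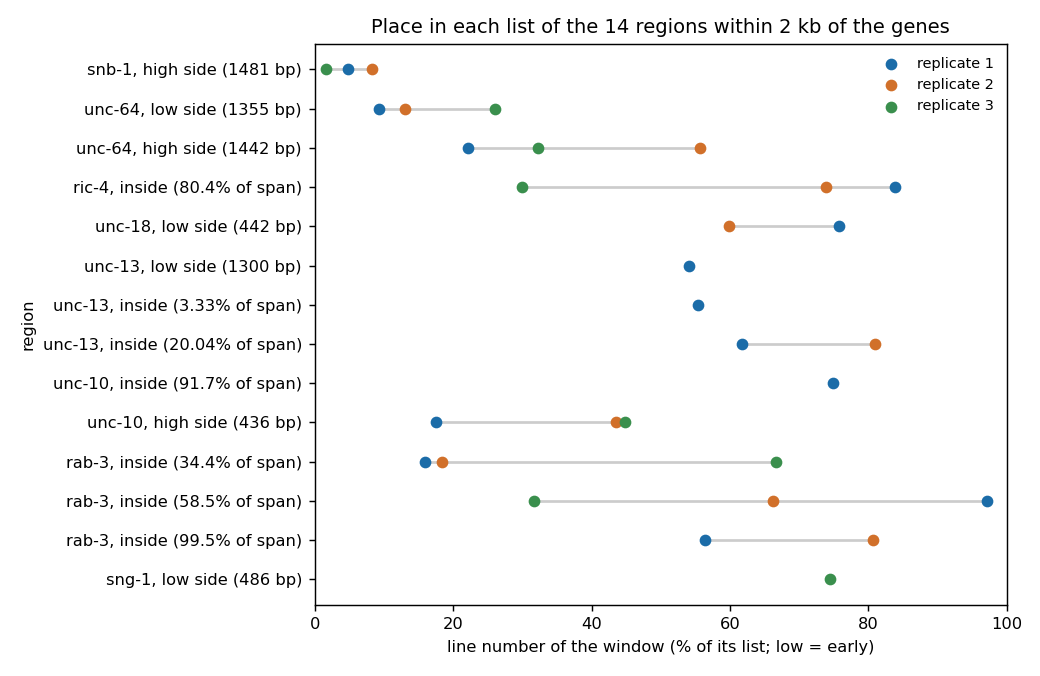
Place in each list of the 14 regions within 2000 bp of the 9 genes, as line number in percent of the list (x axis), 1 point per replicate and a grey line from the lowest to the highest. The region at snb-1 lies between 1.65% and 8.23% in all lists, and the second one inside rab-3 spreads from 31.7% to 97.2%.

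The line positions of the 7 shared regions differed between replicates. Their median place was 17.6%, 43.6% and 31.7% of the list in replicates 1, 2 and 3, and over all 1788 shared regions it was 27.7%, 36.4% and 36.3%. Single regions ran against these medians. The first region of rab-3 was late in replicate 3 (66.6% of the list against 15.9% and 18.4%). The one in ric-4 was late in replicates 1 and 2 (83.8% and 73.9%) against 30% in replicate 3. So was the second of rab-3 (97.2% and 66.2% against 31.7%). The 3 regions held by replicates 1 and 2 alone lay at unc-18, unc-13 and rab-3.

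The distance to the nearest shared region gives a value for every gene. It was 0 bp for ric-4 and rab-3, which 2.56% of all protein-coding genes equal. It was 436 bp for unc-10, 1355 bp for unc-64 and 1481 bp for snb-1, and 4.75%, 7.66% and 7.96% of genes had a shared region at least as near. Next came snt-1, unc-18 and sng-1 at 4019, 4148 and 4762 bp, with 13.97%, 14.3% and 15.6% of genes as near. The last was unc-13 at 21230 bp, where 46.4% of genes had one as near. The median over the 9 genes was 1481 bp and over all protein-coding genes 23687 bp. Within 5000 bp, 8 of the 9 genes had a shared region, against 16.2% of all protein-coding genes, but some of those regions lay nearer to another gene, as given above for unc-18 and sng-1.

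**Figure D3:**
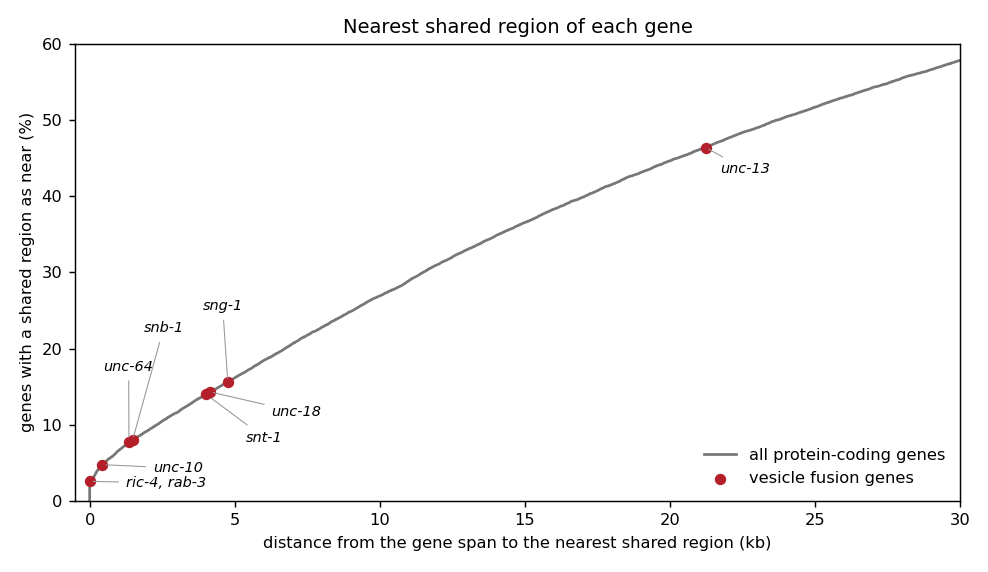
Distance in kb from the gene span to the nearest shared region (x axis) against the percent of all 19971 protein-coding genes with a shared region at least as near (y axis, grey curve), with the 9 genes as red points. Of the 9, 8 lie below 5 kb and unc-13 lies at 21230 bp.

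A list of 20 other genes of transmitter release, made up of complexins, Rab3 partners, calcium channel subunits, SNARE recycling factors and active zone proteins, was described by the same rule. Of these, 13 had a shared region (65%, against 9.21% of all protein-coding genes). A window was found at 18, 16 and 17 of them in replicates 1, 2 and 3. That is 90%, 80% and 85%, against 16.8%, 14.1% and 18.04% of all protein-coding genes. This list too was drawn up with earlier results known, and its median span was 8875 bp. All 7 of its genes between 5 and 10 kb had a shared region, against 17.9% of all protein-coding genes of that span. Over 10 kb, 5 of 9 did (against 30%), and from 2 to 5 kb 1 of 3 (against 8.73%). The only one under 2 kb, cpx-1, did not (against 5.64%).

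Both complexin genes were among those without one. Direct partners of the SNAREs were nsf-1, the ATPase that takes SNARE bundles apart, with shared regions 0 and 463 bp from the span at mean places of 15.4% and 62.5%, and snap-1, its adaptor alpha-SNAP, with one 278 bp outside. The gene spr-1 lay within 2000 bp of the latter, and adr-1 within 2000 bp of both at nsf-1. Partners of RAB-3 were aex-3, its exchange factor, with a region 882 bp outside, and rbf-1, which encodes rabphilin, with 2 inside. The calcium channel genes ccb-1 (beta subunit) and unc-36 (alpha2-delta subunit) had regions 1008 and 633 bp outside.

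The active zone and presynaptic signalling genes made up the rest. The gene sad-1, of a presynaptic kinase, had a shared region inside at line 184, 97 and 579 and one 1831 bp outside at line 1563, 1099 and 2817. The gene syd-2, of liprin-alpha, had one 319 bp outside at line 541, 166 and 316 and one 1649 bp outside at line 1409, 1426 and 2581. The gene syd-1 had shared regions inside at line 75, 199 and 855 and at line 1793, 1333 and 3101. The gene pkc-1, of a protein kinase C, had 4 shared regions inside its span. The gene F10C2.3 lay within 2000 bp of the one at 56.7% of the span, and kup-1 within 2000 bp of the one at 92.2%. The remaining genes with at least 1 shared region were elks-1, cla-1 and rpm-1, and C01B7.7 lay within 2000 bp of the shared region at rpm-1.

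The 7 without a shared region were cpx-1, cpx-2, tom-1, unc-31, aex-6, unc-2 and rimb-1. The complexin gene cpx-1 had a region of replicates 1 and 2, 436 bp outside, at line 1636 and 805, and cpx-2 had no window. The genes tom-1 (tomosyn) and unc-31 (the CAPS priming factor) each had 1 region, in replicates 1 and 2 alone. Both also had a shared region past the 2000 bp limit, 2071 bp from tom-1 at line 1189, 755 and 2307, and 2321 bp from unc-31 at line 200, 216 and 530. The RAB-27 gene aex-6 had one 2306 bp away at line 1515, 1860 and 1219, nearer to glp-4. With coordinates moved by 100 bp to the right the count for this list was 14 (70%, against 9.26% of all protein-coding genes). The calcium channel gene unc-2 had 6 windows of replicate 1, 0 of replicate 2 and 1 of replicate 3.

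A list of 23 paralogs, further members of the SNARE and synaptotagmin families, had 3 genes with a shared region (13.04%, against 9.21% of all protein-coding genes). A window was found at 5, 3 and 5 of them in replicates 1, 2 and 3. That is 21.7%, 13.04% and 21.7%, against 16.8%, 14.1% and 18.04% of all protein-coding genes. Their median span was 2150 bp, and the difference from the 9 genes was not tested. The families are set side by side below, without any statement that one member is bound and another is not.

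Among synaptobrevin relatives, snb-2 had a window of replicate 3 alone, 444 bp outside at line 1419. The region 1204 bp from snb-5 is the one that lies 633 bp from unc-36, so 1 region counts for both lists. The genes snb-6, snb-7, vamp-7 and vamp-8 had no window within 2000 bp. Among 9 further syntaxin genes, syx-5, whose product acts in Golgi traffic, had a shared region 391 bp outside at line 703, 657 and 1826, with T04F3.4 and F55A11.1 also within 2000 bp. The other 8 had none, among them syx-18, the neighbour of snb-1 on the side away from its regions. The SNAP-25 relatives aex-4 and snap-29 had none.

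Among synaptotagmin genes the paralog snt-4 had a shared region 90 bp outside its lower-coordinate end, at line 680, 485 and 1277, while snt-1 had none within 2000 bp. The gene snt-2 had a region of replicates 1 and 3 at 52 bp, with the ribosomal protein gene rps-29 also within 2000 bp. The gene snt-5 had windows of replicate 1 alone. No window lay within 2000 bp of snt-3, snt-6 or snt-7. Past that limit a shared region lay 2393 bp from snt-3, its nearest protein-coding gene, at line 205, 272 and 1267. Another lay 2667 bp from snt-2 at line 684, 527 and 465, but 98 bp from dagl-2.

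**Figure D4:**
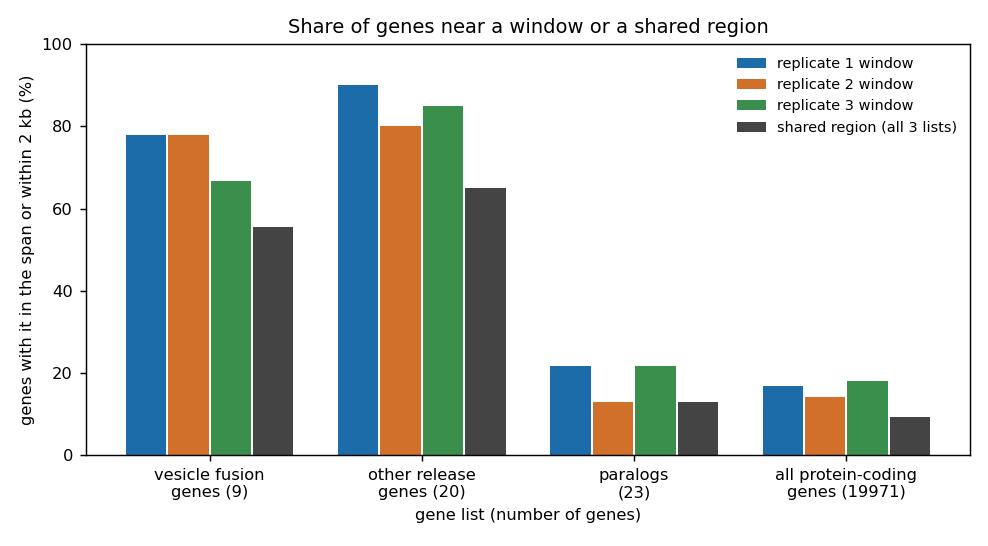
Percent of genes (y axis) with a window of each replicate (coloured bars) or a shared region (dark bars) inside the span or within 2 kb, for the 9 vesicle fusion genes, 20 other release genes, 23 paralogs and all 19971 protein-coding genes. The dark bars stand at 55.6%, 65%, 13.04% and 9.21%, and gene length differs between the lists.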

How the data were processed

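The authors deposited, for each ETS-5 precipitate, a list of windows with chromosome, start and end, and no other values. The submitters' processing notes name Bowtie2 and MACS2. The sources used here state neither a build nor a control, threshold or line order. A stricter threshold or another control would change the lists. Starts were counted from 1, assuming that the files count from 0, and the middle of a window was taken as its centre.

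Gene spans came from the RefSeq gene table of WBcel235, where all 9 genes, the 20 release genes and the 23 paralogs matched by symbol. To check the fit of the coordinates, shared regions were moved in steps of 10 bp. The share inside genes was 35.3% as deposited and lowest, 35.1%, at 40 bp, and 36.6% and 36.1% at 100 bp to the left and right. Distances to genes may thus be off by about 100 bp, locally perhaps more.

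Centres were averaged over a region's windows. The gene assignment was checked against a direct count on simulated lists. Those lists held overlapping windows of all 3 replicates near chosen genes, so the merging of regions with fewer lists was not checked. Lists 1 and 2 had 48 windows in common base for base, 1 and 3 had 46, and 2 and 3 had 41. The members and lists were chosen with earlier results of these data known. Named were all 9 genes, listed genes with a shared region, up to 6 with windows but none shared, and neighbours. Other listed genes were named after their values were seen, to complete counts. A planned motif search was not run. Python 3.11.15, numpy 2.4.6 and pandas 2.3.3 were used.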

Additional observations from a re-analysis of the deposited data

How the results depend on the processing

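The count of 5 of the 9 genes near a shared region was the same with any base of the region, an overlap of 100 bp, coordinates moved by 100 bp either way and the nearest gene only. The share of all protein-coding genes was 6.24% with the nearest gene only and 9.09% to 9.79% with the others. It changed with distance. It was 3 within 500 bp and 3 within 1000 bp, where snb-1 and unc-64 were lost, 2 inside the span only and 8 within 5000 bp, against 4.96%, 6.59%, 2.56% and 16.2% of all protein-coding genes. In the first 50% of the lines it was 3, without ric-4 and rab-3 (4.30% of all genes). Leaving out replicate 1, 2 or 3 gave 5, 5 and 7, against 10.1%, 11.4% and 12.1% of all protein-coding genes. The genes unc-18 and unc-13 were added without replicate 3. They were also added with regions of at least 2 replicates (7, against 15.1% of all genes). Windows inside the span only were found at 4, 3 and 2 genes in replicates 1, 2 and 3, where 7, 7 and 6 had one within 2000 bp. Of all protein-coding genes, 5.37%, 3.76% and 5.06% had one inside the span. For the 20 other release genes the count of 13 was 6 inside the span only (30%, against 2.56% of all protein-coding genes). It was 8 in the first 50% of the lines (40%, against 4.30%). With 1 replicate left out it was 13 to 16 (65% to 80%, against 10.1% to 12.1%). For the 23 paralogs the count of 3 was 6 within 5000 bp (26.1%, against 16.2% of all protein-coding genes) and 0 inside the span (against 2.56%). It was 1 with the nearest gene only (4.35%, against 6.24%). With 1 replicate left out it was 3 to 4 (13.04% to 17.4%, against 10.1% to 12.1%). Smaller or larger distances admit fewer or more genes by construction, and the first 50% of the lines hold fewer windows by construction. The shared regions of ric-4 and rab-3 were lost through windows past 50% of the list. At ric-4 these were the windows of replicates 1 and 2 (83.8% and 73.9%). At rab-3 they were those of replicate 3 for its first region (66.6%) and of replicates 1 and 2 for its second (97.2% and 66.2%). The gene unc-64 kept 1 of its shared regions, as the window of replicate 2 at its higher-coordinate end lay at 55.7%.

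No paired analysis was possible because the lists used belong to a single group and no result comes from a test. The lists hold no scores or counts, so depth is unknown and a gene without a window cannot be called unbound. The wild-type precipitates and the inputs were not analysed here, so windows that would also appear without the tag cannot be told apart.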

Other observations

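Among the 9 release genes with a span over 10 kb, some differed in which replicate supplied their windows. The examples were picked after the values were seen. The active zone gene cla-1, with a span of 39308 bp, had 3, 3 and 8 windows in replicates 1, 2 and 3. Its 2 shared regions lay at 57.5% and 77.7% of the span. Replicate 3 alone placed windows at 2616, 3439, 5230, 6764 and 35001 bp from the lower-coordinate end, at line 2765, 3555, 2297, 3440 and 2725. Replicate 2 alone placed one at 31607 bp, at line 2083, and a region of replicates 1 and 3 lay at 8780 bp. The calcium channel gene unc-2, with a span of 52607 bp, had 6, 0 and 1, and 5 of its 6 regions came from replicate 1 alone. In contrast pkc-1, with a span of 17747 bp, had 4 windows in each list, all in shared regions. The other genes of that size were closer to even. Windows in replicates 1, 2 and 3 numbered 3, 2 and 3 at rbf-1 and at sad-1, and 1 in each list at rpm-1. They numbered 1, 1 and 0 at tom-1 and at unc-31, and 1, 0 and 2 at rimb-1.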
